A study of Mus musculus with 49 samples.

Results

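The Obox genes are a mouse family of oocyte-specific homeobox genes. They encode paired-like homeodomain proteins, a class of DNA-binding factors that also holds CRX and OTX2. The mRNAs of Obox1, Obox2, Obox5 and Obox7 are known as maternal, stored in the oocyte and inherited by the zygote, whereas Obox3 is known as a zygotic member, transcribed once the embryonic genome becomes active. Maternal and zygotic OBOX proteins are known to act in zygotic genome activation (ZGA) and to bind the long terminal repeats of MERVL retrotransposons. Embryos of a single stage were measured, so that maternal and newly made mRNA could not be separated here, and the division into maternal and zygotic members is background.

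The 7 protein-coding members Obox1, Obox2, Obox5, Obox7, Obox3, Obox6 and Obox8 were taken by their symbol from the 54838 gene rows of the count tables, and all 7 had enough reads to be tested in both experiments. The data are Smart-seq+5′ libraries of single F1 (C57BL/6J x CBA/H) embryos at the late 2-cell stage, a full-length single-cell RNA-seq method whose transcript 5′ ends were counted. In TBP LOF (loss of function, 9 embryos) zygotes received an antibody against TBP, the TATA-binding protein of the general transcription machinery, and in TBP CONTROL (10 embryos) mouse IgG. In FOXJ3 LOF (17 embryos) they received an antibody against the forkhead factor FOXJ3, and in FOXJ3 CONTROL (13 embryos) rabbit IgG, both in 2 library batches. All 4 groups, CONTROL included, also received mCherry-Trim21 mRNA, which encodes the ubiquitin ligase that Trim-Away uses to degrade antibody-bound protein. Zygotes were collected 17 to 18 h after hCG, the injections were 4 h apart and embryos were harvested at 48 h. Trim-Away acts on protein, so no mRNA level in these tables checks the depletion itself.

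Of the 49 embryos, 47 passed the study's quality limits, which left 9 embryos in each TBP group, 16 in FOXJ3 LOF and 13 in FOXJ3 CONTROL. They held 1103569 to 5434808 counted reads. The share of reads from the ERCC spike-ins, RNA added in equal amount to each embryo, was 2.67 to 6.12% in TBP LOF and 2.22 to 3.25% in TBP CONTROL. Median mCherry-Trim21 was 1390 CPM (counts scaled to a common library total) in TBP LOF and 770 CPM in TBP CONTROL. In the FOXJ3 experiment the order was the reverse, with 351 CPM in LOF and 839 CPM in CONTROL. The part of this level in the results was not tested beyond a fit of each experiment with it as a covariate. In these fits the same number of members passed the threshold as without it. The 8 late 2-cell markers all had reads in each group, with a median summed level of 321 CPM in TBP LOF and 166 CPM in TBP CONTROL. With reads scaled to the spike-ins, their median log2 fold change was 0.20, against -0.72 for all features. The markers include genes that the paper names as unaffected by TBP loss. Their level therefore does not show how far embryos had developed, and the paper reports TBP LOF embryos as shifted towards earlier stages. Summed sperm markers did not exceed 4.43 CPM in any TBP embryo. Summed blastocyst lineage markers reached 28.8 CPM in TBP LOF and 15.5 CPM in TBP CONTROL. Of 8 cumulus and granulosa cell markers, 5 had a read in TBP CONTROL (18.6 to 70.7 CPM in sum, with Inha, Has2 and Ptx3 at 0) and 4 in TBP LOF (12.2 to 36.3 CPM, with Amh also at 0). Their part in the results below was not tested.

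The family is clustered. In the GRCm38 annotation, 55 loci carry a symbol beginning with Obox, of which 47 are pseudogenes and 1 is a lincRNA (Obox4-ps35). All but 2 lie on chromosome 7 between positions 14331436 and 15839678, a span of 1508243 bases that also holds 31 other annotated genes, and the 2 others are on chromosome 17. On chromosome 7, Obox8 (ENSMUSG00000099216.1) spans chr7:14331436-14333557 on the minus strand and Obox7 (ENSMUSG00000055942.13) chr7:14659496-14665996 on the plus strand. Obox2 (ENSMUSG00000074369.12, chr7:15388721-15398545, plus) overlaps the start of Obox1 (ENSMUSG00000054310.16, chr7:15388948-15556866, plus), and the latter overlaps Obox3 (ENSMUSG00000066772.12, chr7:15479825-15639902) on the opposite strand. Obox5 (ENSMUSG00000074366.9, chr7:15750131-15759800, plus) and Obox6 (ENSMUSG00000041583.8, chr7:15833241-15839678, minus) follow. Of the 48 loci that are not members, 20 had no read in any of the 49 embryos, 20 had at most 50 reads in either experiment, and 8 had more: the pseudogenes Obox3-ps1 to Obox3-ps7 and Obox4-ps35.

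By sequence the members form a close group of 5, with Obox6 further from it and Obox8 furthest. Aligned over their coding sequences, Obox1, Obox2, Obox5, Obox7 and Obox3 were 92.9 to 98.5% identical to each other, 75.5 to 80.1% identical to Obox6 and 58.3 to 62.5% identical to Obox8. Obox6 and Obox8 were 61.9% identical to each other. The difference is visible in the recognition helix of the homeobox, the part of the homeodomain that contacts DNA bases. The stretch is shown for each member from its GENCODE transcript, with the letters in capitals that, in frame, encode the residue known to set the base preference of homeodomains of the CRX kind.
Obox1: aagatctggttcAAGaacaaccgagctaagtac
Obox2: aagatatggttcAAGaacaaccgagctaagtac
Obox5: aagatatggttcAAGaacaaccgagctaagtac
Obox7: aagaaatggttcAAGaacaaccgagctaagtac
Obox3: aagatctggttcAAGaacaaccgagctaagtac
Obox6: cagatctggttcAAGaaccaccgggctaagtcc
Obox8: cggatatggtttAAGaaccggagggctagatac
The letters AAG stood at the same place in all 7 stretches. Over these 33 bases Obox1 equalled Obox3, Obox2 and Obox5 had 1 difference from it, Obox7 had 2, Obox6 had 4 and Obox8 had 11. In the annotated Obox2 transcript the letters tggttc of the stretch begin at base 420 of 453 coding bases. The stretch is out of the reading frame there, so that its AAG is no codon of the annotated product. The stretch was in frame in the other 6 members, whose coding sequences had 612 to 1041 bases.

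This likeness bears on the counts. Of the 50-base words in the transcripts of Obox1 and Obox2, 57.4% and 65.1% also occur in another transcript, mostly in each other. The share was 18.1% for Obox5, 21.1% for Obox7 and 20.2% for Obox3, 5.02% for Obox6 and 0% for Obox8. The sources used here do not give how reads were assigned that map to several copies or to both strands of overlapping genes. The levels of Obox1, Obox2, Obox5, Obox7 and Obox3 are therefore uncertain as single-gene values, while Obox6 and Obox8 are little affected by sequence sharing.

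Since TBP binds TATA elements, the sequence before the RefSeq start is shown where it was at hand. That start is not the outer end of the GENCODE spans given above, which take in transcripts that start further upstream, so that the 4 stretches below lie within those spans. RefSeq promoter windows (250 bases before to 50 after the RefSeq start, GRCm38.p6) existed for 5 of the 7 members, not for Obox6 and Obox8. In 4 of the 5 windows, an 80-base stretch ending in the letters TATATAAG, in capitals, was nearly the same. The letters were chosen after the sequences had been looked at.
Obox1 (chr7:15547166-15547245, plus): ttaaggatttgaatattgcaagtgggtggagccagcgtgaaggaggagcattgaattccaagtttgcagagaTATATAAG
Obox5 (chr7:15750267-15750346, plus): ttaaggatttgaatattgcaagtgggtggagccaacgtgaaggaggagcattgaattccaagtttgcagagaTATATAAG
Obox7 (chr7:14659631-14659710, plus): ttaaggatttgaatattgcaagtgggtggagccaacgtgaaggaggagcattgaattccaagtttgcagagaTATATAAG
Obox3 (chr7:15639800-15639879, minus): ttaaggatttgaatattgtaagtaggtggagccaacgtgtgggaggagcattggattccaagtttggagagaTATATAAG
The Obox5 and Obox7 stretches were identical, Obox1 had 1 difference from them and Obox3 had 6. TATATAAG began 19 bases before the RefSeq start in Obox1, 31 in Obox5, 5 in Obox7 and 30 in Obox3. On either strand it occurred in 331 of 32851 promoter windows of this length (1.01%), and on the gene strand within 60 bases before to 10 after the start in 138 (0.42%). Of the other letters searched on both strands, TATAAA occurred in 13.6% of windows and GGATTA, the core of CRX-type sites, in 7.06%. Among the members, the Obox3 window alone held them, at positions -189 and -168 from the start. The Obox2 window held none of the 3 motifs. A match is a description of letters and no evidence of a site.

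The first comparison asks what the loss of TBP did to the members. Obox8 and Obox6 were lower in TBP LOF embryos, by 9.29-fold and 3.93-fold, and the maternal members and Obox3 did not pass the test when reads were scaled to the ERCC spike-ins, the scale of RNA per embryo. The test was edgeR's quasi-likelihood test with Benjamini-Hochberg adjustment over all genes and TE families and a threshold of 0.05, under which 31.1% of features were called, 29.7% lower and 1.34% higher. Read against this background, 2 of 7 members called is a share close to that of all features. The median log2 fold change of all features was -0.72 on this scale. Relative to that median the members lay on both sides, from -2.50 for Obox8 to 1.53 for Obox1.

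Obox8 fell most among the members. Its ERCC-normalised read counts were 416 at the lowest, 646 at the median and 974 at the highest in TBP CONTROL, and 2.20, 69.2 and 227 in TBP LOF. Each of the 9 LOF embryos lay below each CONTROL embryo, which was so for 6.69% of features. The log2 fold change was -3.22 ± 0.44 (SE, 95% interval -4.09 to -2.34, adjusted p = 7.46e-08), and 2.37% of features had a lower one. LOF embryos differed widely among themselves in this gene: embryos 1, 9 and 11 had under 9 normalised reads and embryo 6 had 227.

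Obox6 encodes the most divergent homeobox of the family after that of Obox8. Its normalised read counts were 412, 535 and 689 (lowest, median and highest) in CONTROL and 30.8, 123 and 290 in LOF. Again no LOF embryo reached the lowest CONTROL embryo, and embryos 9, 11 and 1, the lowest for Obox6, were also the 3 lowest for Obox8. The log2 fold change was -1.98 ± 0.34 (95% interval -2.66 to -1.29, adjusted p = 6.88e-06), and 14.4% of features had a lower one. Scaled by TMM, which assumes that most features keep their level, Obox8 was lower by 2.49 on the log2 scale and each LOF embryo still lay below each CONTROL embryo, as in 1.87% of features. Obox6 was then lower by 1.24, with 7 of 9 LOF embryos below each CONTROL embryo, and both passed the test.

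**Figure D1:**
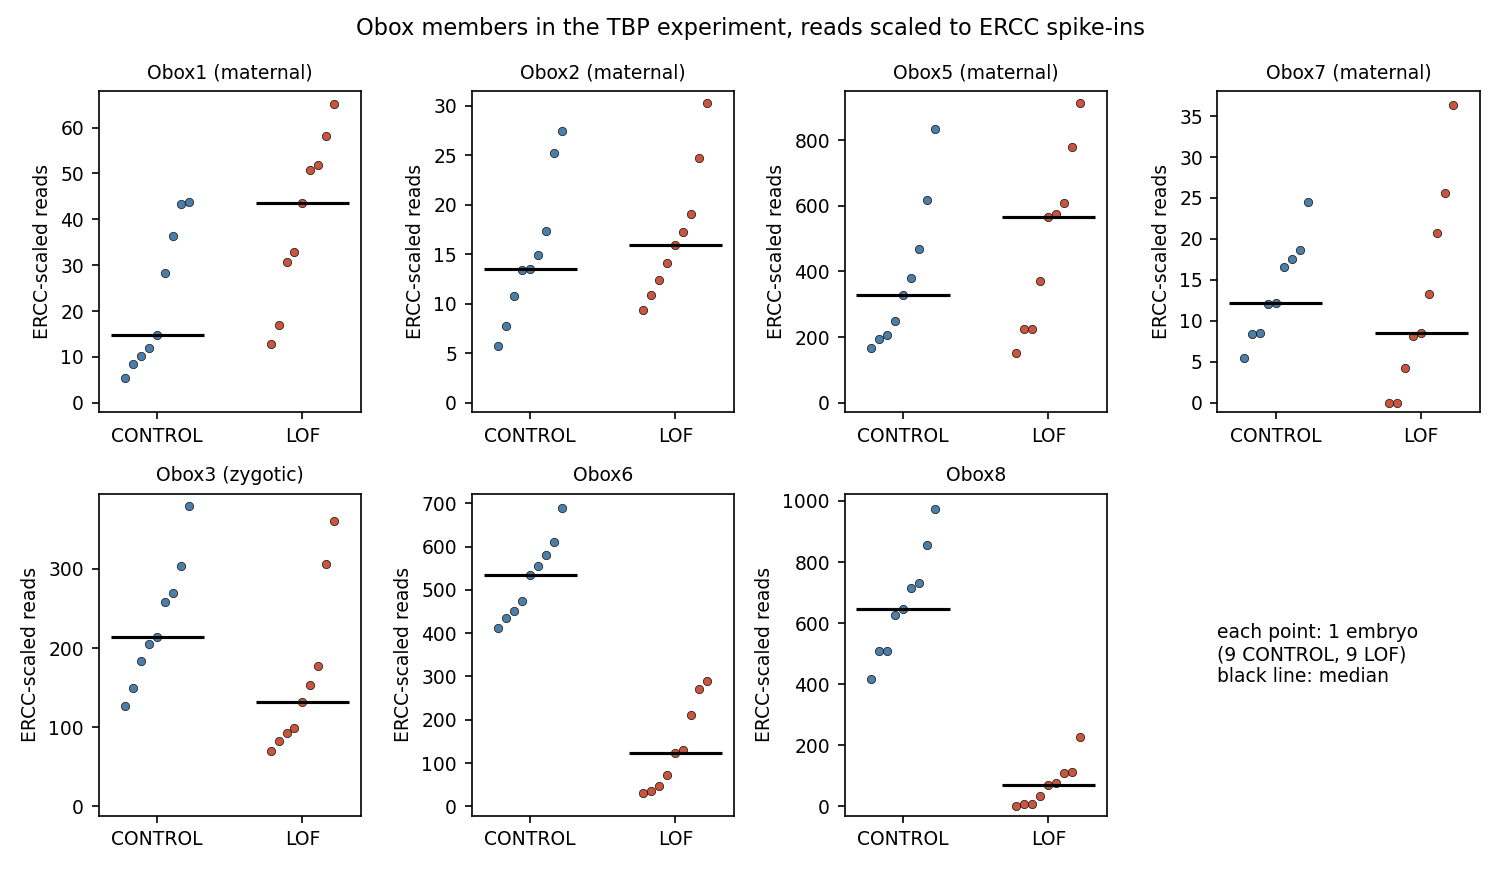
ERCC-normalised read counts of the 7 members in each TBP CONTROL (n = 9) and TBP LOF (n = 9) embryo, on linear axes, with 1 point per embryo and a black line at each group's median. The points of Obox6 and Obox8 do not overlap between the groups (at most 290 and 227 in LOF, at least 412 and 416 in CONTROL), whereas those of the other members do.

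Obox3, the zygotic member, was 232 ± 79.2 (SD, n = 9) normalised reads in CONTROL and 164 ± 103 in LOF. The values ran from 126 to 379 in CONTROL and from 69.6 to 360.5 in LOF, with 4 LOF embryos below each CONTROL embryo and the other 5 within their range. The log2 fold change of -0.51 ± 0.31 (95% interval -1.13 to 0.12, adjusted p = 0.231) did not pass the test, and its sign turned under TMM, to 0.26 (adjusted p = 0.443). Summed with the 7 pseudogene loci Obox3-ps1 to Obox3-ps7, Obox3 gave -0.62 ± 0.31 (adjusted p = 0.121). Among these loci, Obox3-ps2 (-0.98 ± 0.36, adjusted p = 0.0317) and Obox3-ps7 (-1.37 ± 0.53, adjusted p = 0.0419) were lower and the other 5 did not pass, and under TMM none of the 7 passed. Obox4-ps35 had 0.23 (adjusted p = 0.717).

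Of the maternal members, Obox1, Obox2 and Obox5 were called or not according to the scale, and Obox7 was called on neither. Obox5, the most abundant of them, had normalised read counts of 168, 327 and 835 (lowest, median and highest) in CONTROL and 150.5, 566 and 913 in LOF. The groups overlapped, and the log2 fold change was 0.36 ± 0.33 (95% interval -0.30 to 1.01, adjusted p = 0.463). Obox1 had 5.42, 14.8 and 43.8 in CONTROL and 12.9, 43.6 and 65.1 in LOF. Here 8 of 9 LOF embryos lay above the CONTROL median and 4 above each CONTROL embryo, with 0.81 ± 0.39 (95% interval 0.03 to 1.60, adjusted p = 0.113). For no member did each LOF embryo lie above each CONTROL embryo, which was so for 0.0103% of features. Obox2 had 0.17 ± 0.42 (adjusted p = 0.815) and Obox7 -0.15 ± 0.54 (adjusted p = 0.878). Both rested on few reads, means of 21.7 and 13.3 per LOF embryo, and Obox7 had no read in LOF embryos 8 and 11, where 3 reads would be 2.03 and 0.72 CPM. Adding the Obox1 and Obox2 reads, which cannot be fully told apart, gave 0.59 ± 0.34 (adjusted p = 0.196).

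Under TMM, where the median of all features was 0.11 and 25.5% of features were called (12.7% lower, 12.8% higher), 5 members passed the test. Obox1 (1.63 ± 0.32, adjusted p = 0.000370), Obox5 (1.16 ± 0.26, adjusted p = 0.00113) and Obox2 (1.07 ± 0.34, adjusted p = 0.0178) were higher in LOF, with 9 of 9 LOF embryos above the CONTROL median for each. Obox7 had 0.68 ± 0.54 (adjusted p = 0.382), with the opposite sign to the ERCC scale. Thus the direction for Obox8 and Obox6 was the same on both scales, and higher levels of 3 maternal members were called on the TMM scale. A lower total of RNA per embryo and a change in the share taken by other genes cannot be told apart on the TMM scale.

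**Figure D2:**
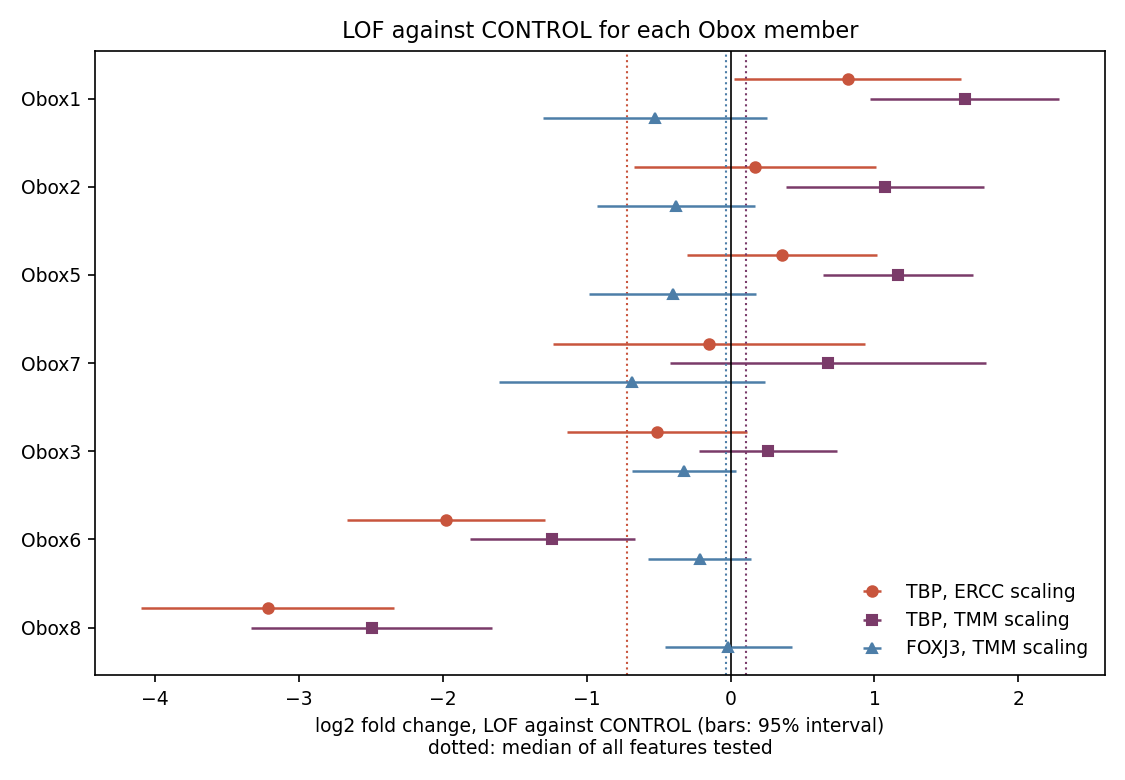
Log2 fold changes (LOF against CONTROL, points) with 95% intervals (lines) of the 7 members for TBP on the ERCC scale, TBP on the TMM scale and FOXJ3, with the median of all features as dotted lines. Obox8 (-3.22 and -2.49) and Obox6 (-1.98 and -1.24) lie below 0 on both TBP scales, the points of the maternal members lie to the right of 0 on the TBP TMM scale, and all FOXJ3 intervals include 0.

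The make-up of the family's mRNA differed accordingly between TBP LOF and CONTROL. Of the reads of the 7 members, Obox6 and Obox8 together held 65.3% ± 8.69 (SD, n = 9) in TBP CONTROL and 21.1% ± 13.1 (n = 9) in TBP LOF. The maternal members held 22.0% ± 7.12 in CONTROL, at most 33.1% in any embryo, and 61.0% ± 15.7 in LOF, at least 38.0% in any embryo. Most maternal reads were of Obox5, with 3180 in CONTROL and 4960 in LOF over all embryos. Obox1, the next, had 190 and 410. Obox5 itself did not pass the test on the ERCC scale. Obox3 held 12.7% ± 3.88 and 17.9% ± 5.27. These shares do not depend on the scaling between embryos, though a lower share of some members raises that of the others. Summed over the members, the level was 807 ± 164 CPM in CONTROL and 583 ± 190.2 CPM in LOF.

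**Figure D3:**
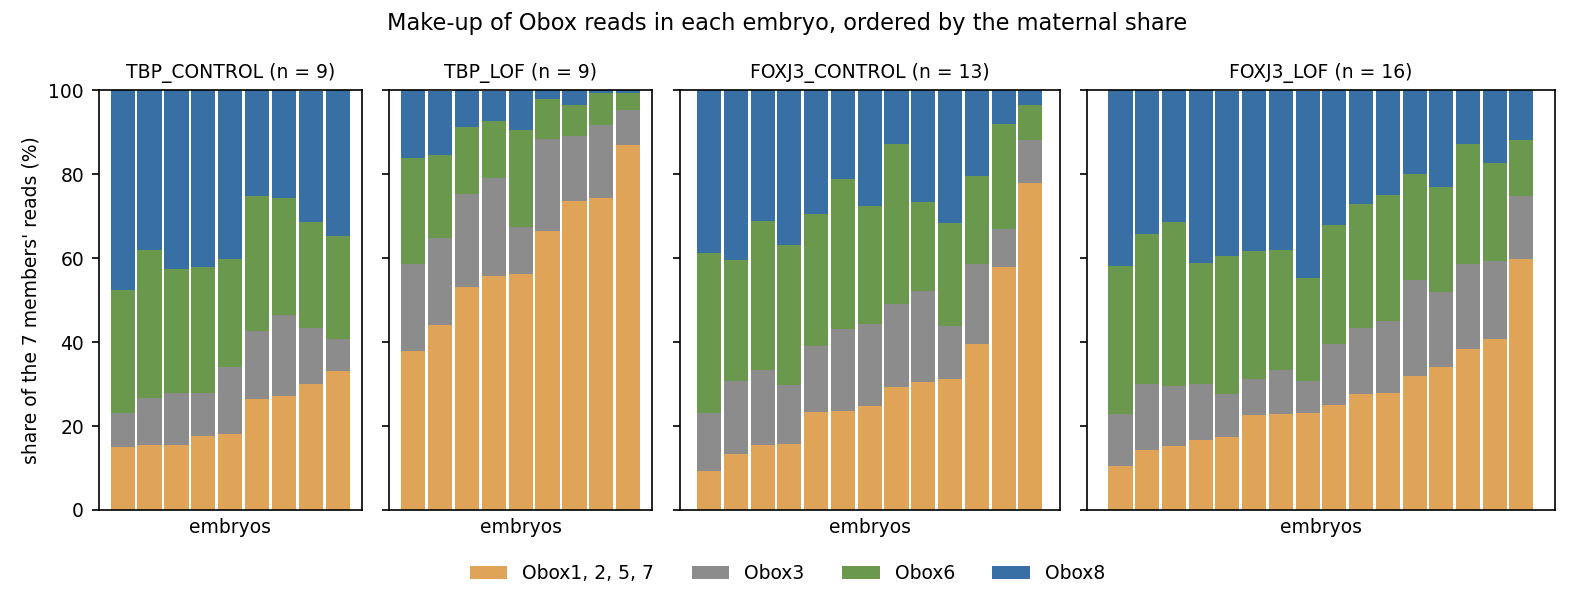
Share of the 7 members' reads (percent) held by the maternal members, Obox3, Obox6 and Obox8 in each embryo of the 4 groups, as stacked bars with 1 bar per embryo, ordered by the maternal part. In TBP LOF the maternal part is 38.0 to 87.1%, against 14.9 to 33.1% in TBP CONTROL, and FOXJ3 LOF and FOXJ3 CONTROL span 10.4 to 59.9% and 9.36 to 78.0%.

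The second comparison asks the same of FOXJ3. None of the 7 members passed the test (edgeR, TMM with batch as a covariate), 0 had an unadjusted p under 0.05, and DESeq2 called 0. Of all features, 0.0102% were called. Obox8 had 605 ± 203 normalised reads (SD, n = 16) in FOXJ3 LOF and 589 ± 286 (n = 13) in CONTROL, with a log2 fold change of -0.02 ± 0.22 (SE, 95% interval -0.46 to 0.43). Obox6 had 593 ± 139 and 686 ± 293, with -0.21 ± 0.18 (95% interval -0.57 to 0.14). The values ran from 291 to 985 in LOF and from 102 to 1186 in CONTROL for Obox8, and from 409 to 853 and from 253 to 1169 for Obox6, so that for both the LOF embryos lay within the wider CONTROL range. Obox3 had 311 ± 112 and 391 ± 131, with -0.32 ± 0.18 (95% interval -0.69 to 0.04, adjusted p = 0.904). The maternal members had -0.40 ± 0.29 (Obox5), -0.53 ± 0.39 (Obox1), -0.38 ± 0.27 (Obox2) and -0.69 ± 0.46 (Obox7), with adjusted p from 0.916 to 0.920. The lower ends of the maternal members' 95% intervals lay between -1.61 (Obox7) and -0.93 (Obox2), so that changes of that size were not shown to be absent.

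The estimates for the maternal members had opposite signs in the batches, though the difference between batches was not tested. Within batch 1 the log2 fold changes were -0.97 ± 0.36 (Obox5), -1.39 ± 0.46 (Obox1), -0.74 ± 0.37 (Obox2) and -1.70 ± 0.62 (Obox7). Within batch 2 they were 0.28 ± 0.31, 0.58 ± 0.44, 0.03 ± 0.39 and 0.57 ± 0.43, with intervals that include 0. None passed the test within a batch. Before adjustment, edgeR gave p = 0.0125 for Obox5, p = 0.00544 for Obox1 and p = 0.0104 for Obox7 in batch 1, and p = 0.0453 for Obox6 in batch 2. Obox3 had -0.37 and -0.29, Obox6 -0.04 and -0.44, and Obox8 0.22 and -0.32. A single CONTROL embryo of batch 1, embryo 3, stood apart in several members at once, with 1970 normalised reads of Obox5, 213 of Obox1 and 96.2 of Obox7 and the lowest CONTROL values of Obox6 (253) and Obox8 (102). For Obox5 and Obox8 the next CONTROL embryo was embryo 2 of the same batch, which had 975 reads of Obox5 and 150.3 of Obox8. Without embryo 3, the FOXJ3 log2 fold changes over both batches were 0.06 for Obox1, -0.08 for Obox5 and -0.23 for Obox7.

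The effects in the 2 experiments were then set against each other in 1 fit over the 47 embryos on the ERCC scale. The experiments share no embryos, and differ also in the IgG of their CONTROL embryos and in library preparation. Median mCherry-Trim21 was higher in LOF than in CONTROL for TBP and lower for FOXJ3, and was not a term in this fit. For 2 of 7 members the TBP effect was lower than the FOXJ3 effect, where 28.9% of features were called, 28.0% lower and 0.911% higher. The difference was -3.39 ± 0.54 for Obox8 (adjusted p = 1.99e-06) and -2.03 ± 0.43 for Obox6 (adjusted p = 0.000131). It was 1.24 ± 0.63 for Obox1 (adjusted p = 0.133), -0.40 ± 0.41 for Obox3 (adjusted p = 0.518), 0.56 ± 0.49 for Obox5, 0.33 ± 0.50 for Obox2 and 0.31 ± 0.78 for Obox7, none of which passed. Under TMM, where 21.6% of features were called (10.9% lower, 10.7% higher), Obox8 (-2.45) and Obox6 (-1.01) were again lower, and Obox1 (2.17), Obox5 (1.58) and Obox2 (1.47) were higher. The Obox3 difference turned to 0.60 under TMM and was not called.

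The level of each member in the 4 groups was compared in CPM, between neighbours in the order of the group means, by two-sided permutation tests adjusted over the 21 pairs. Obox8 was at 45.5 ± 44.1 CPM (SD) in TBP LOF and at 283 ± 98.2 in FOXJ3 LOF, 291 ± 78.9 in TBP CONTROL and 297 ± 160 in FOXJ3 CONTROL. TBP LOF differed from the next group, FOXJ3 LOF of the other experiment (exact permutation p = 9.79e-07, adjusted p = 2.06e-05). The other 3 did not differ beyond their spread. TBP LOF and TBP CONTROL were not neighbours for Obox8, and so were not compared in CPM. Obox6 was at 85.6 ± 59.1 CPM in TBP LOF, 232 ± 44.95 in TBP CONTROL, 279 ± 72.3 in FOXJ3 LOF and 341 ± 161 in FOXJ3 CONTROL. For Obox6, TBP LOF differed from its neighbour TBP CONTROL (exact permutation p = 0.000123, adjusted p = 0.00130) and the other neighbours did not differ beyond their spread.

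None of the 15 neighbour pairs of Obox3 and the maternal members passed among the 47 embryos. TBP CONTROL and TBP LOF were not neighbours in the order of means for any maternal member, and so were not compared in CPM. With all 49 embryos the order changed for Obox2, and this pair came to be tested: Obox2 was lower in TBP CONTROL (6.26 CPM, n = 10) than in TBP LOF (11.3 CPM, n = 9, exact permutation p = 0.00268, adjusted p = 0.0188). The order changed with the added FOXJ3 LOF embryo, as the FOXJ3 LOF mean moved from 11.08 to 11.38 CPM, past that of TBP LOF. The TBP CONTROL mean had been 6.47 CPM among the 47 embryos. Both added embryos had failed the quality limits. In reads per 1000 ERCC reads, the same Obox2 pair was tested among the 47 embryos and did not pass (0.24 in CONTROL and 0.28 in LOF, exact permutation p = 0.481, adjusted p = 0.946). Obox3 was lowest in TBP CONTROL (101 ± 31.8 CPM) and TBP LOF (102 ± 44.2), and higher in the order came FOXJ3 LOF (147 ± 59.0) and FOXJ3 CONTROL (191 ± 66.0). Obox5 was at 161 ± 79.4 CPM in TBP CONTROL, 247 ± 175 in FOXJ3 LOF, 303 ± 191 in FOXJ3 CONTROL and 305 ± 132 in TBP LOF. Obox1, Obox2 and Obox7 had group means of 6.02 to 25.1 CPM, each lowest in TBP CONTROL. Levels across the experiments cannot be told apart from the IgG and the batch.

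**Figure D4:**
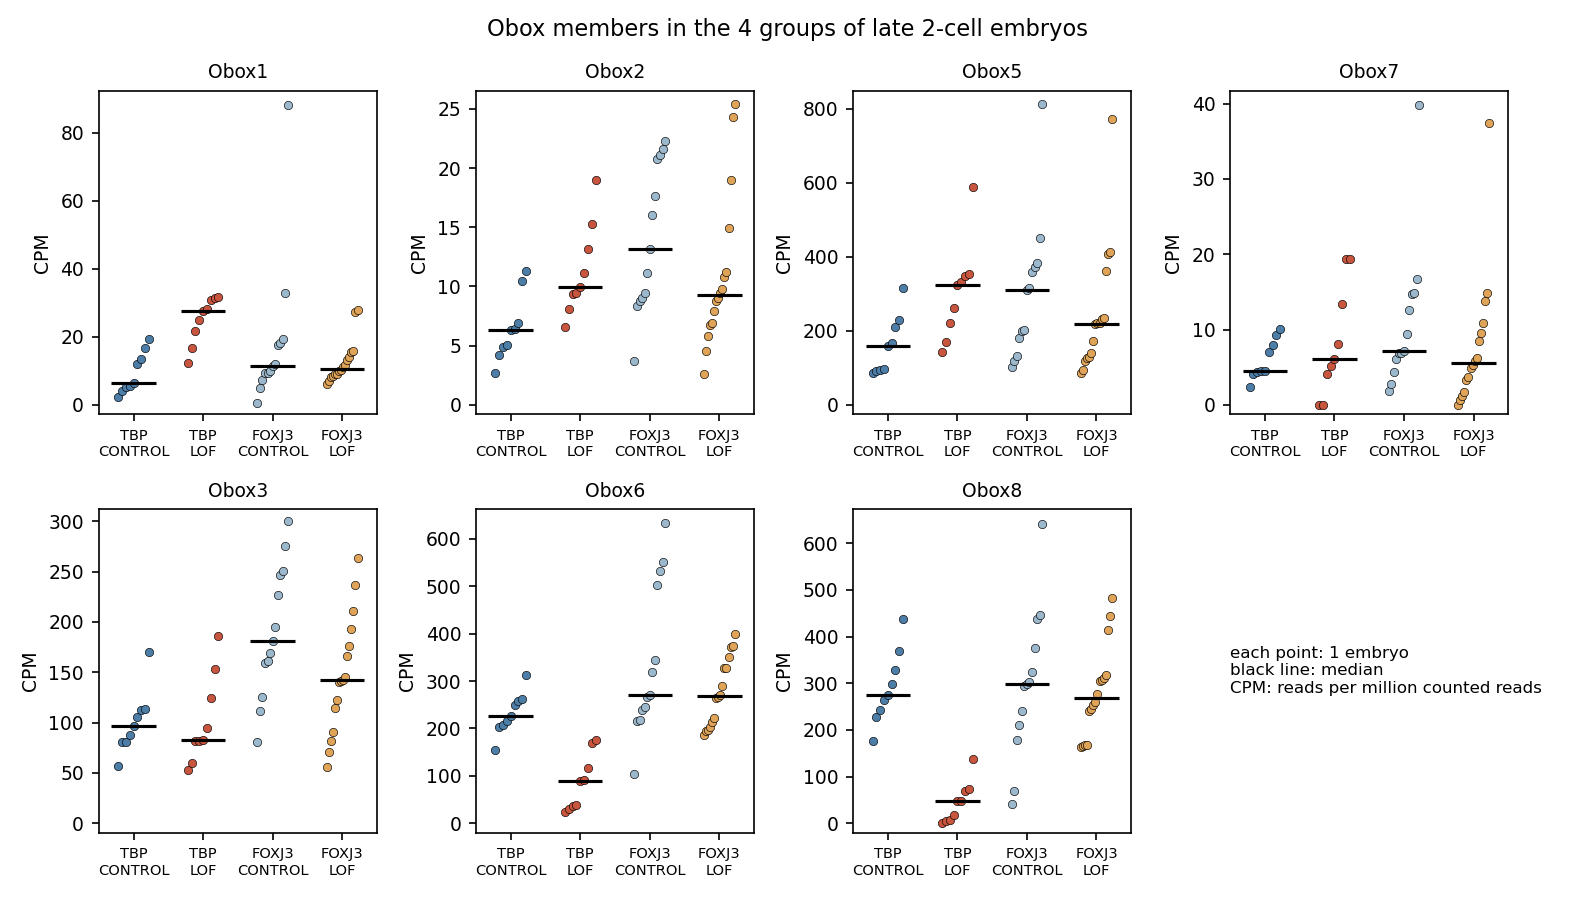
Level of each member in the 4 groups in CPM on linear axes, with 1 point per embryo and a black line at the group median (n = 9 for each TBP group, n = 13 in FOXJ3 CONTROL and n = 16 in FOXJ3 LOF). The medians of Obox6 and Obox8 are lowest in TBP LOF (89.8 and 48 CPM), and those of the maternal members Obox1, Obox2, Obox5 and Obox7 are lowest in TBP CONTROL.

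Between genes, levels were compared per 1000 bases of annotated exon. In TBP CONTROL the order was Obox8 (249 ± 67.6 CPM per 1000 bases, SD, n = 9), Obox6 (172 ± 33.4), Obox5 (75.6 ± 37.2), Obox3 (31.5 ± 9.95), Obox1 (4.98 ± 3.20), Obox2 (3.93 ± 1.71) and Obox7 (3.76 ± 1.65). Reads were counted from transcript 5′ ends, whose number need not rise with length, so that this order is approximate. In TBP LOF, Obox5 came first (143 ± 61.8), before Obox6 (63.7 ± 43.9), Obox8 (39.0 ± 37.8) and Obox3 (31.95 ± 13.9). Without division by length, the order in TBP CONTROL was the same. In TBP LOF it was not: Obox3 (102 CPM) then came before Obox6 (85.6 CPM) and Obox8 (45.5 CPM).

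Members were also compared in how they varied from embryo to embryo, with deviations pooled over the groups. Pearson's r of the deviations of log2(CPM + 1) from the group and batch mean, over 47 embryos, was 0.41 to 0.72 for the 6 pairs of maternal members and 0.82 for Obox6 with Obox8. Between a maternal member and Obox6 or Obox8 it was -0.28 to 0.04. Obox3 had r of 0.04 to 0.29 with the maternal members and of 0.40 at the lowest with Obox6 and Obox8. These are descriptions: the values of 1 embryo share a library and a depth, and near-identical members may share reads. No r was computed for a single group, and groups with a wide spread weigh most. Obox8 ran from 1.66 to 138 CPM in TBP LOF and from 42 to 641 CPM in FOXJ3 CONTROL. It ran from 176 to 438 CPM in TBP CONTROL and from 164 to 483 CPM in FOXJ3 LOF. On the ERCC scale the ranges were 0.60 to 0.81 for maternal pairs, -0.33 to 0.18 between maternal members and Obox6 or Obox8, and 0.79 for Obox6 with Obox8. Obox3 had r of 0.19 to 0.52 with the maternal members on that scale, against 0.04 to 0.29 in CPM, and these ranges overlap. The range of the maternal pairs also lay higher on the ERCC scale than in CPM.

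**Figure D5:**
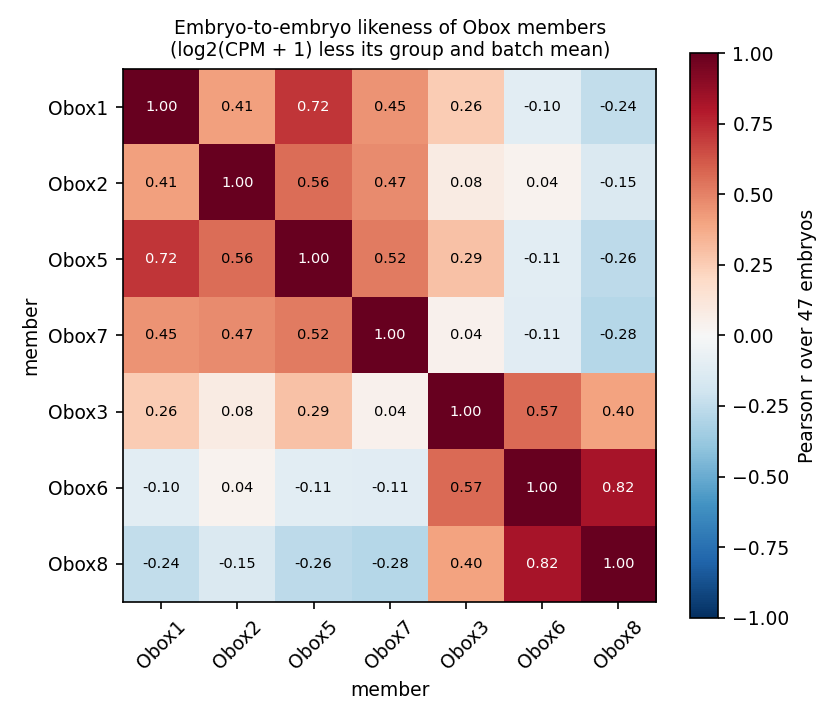
Pearson's r between the members of the deviations of log2(CPM + 1) from the group and batch mean, over 47 embryos, with each cell coloured and printed by its value. The maternal members form a block of 0.41 to 0.72 and Obox6 with Obox8 reaches 0.82, while values between these sets lie between -0.28 and 0.04.

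The genes whose deviations, pooled over the groups, were most like those of each member were taken among 9051 genes with a mean of at least 5 CPM. For Obox5 they were Pld1 (r = 0.85), which encodes a phospholipase, Rfpl4 (0.83), an oocyte RING finger gene, and E330034G19Rik (0.83). For Obox1 they were Obox5 (0.72), E330034G19Rik (0.67) and Btg4 (0.63), which encodes an adaptor for the decay of maternal mRNA. For Obox2 they were Mcm9 (0.58), Zmynd11 (0.58) and Obox5 (0.56), and for Obox7 Aktip (0.73), Gm13084 (0.71) and Bbip1 (0.68). Obox3 was most like its own pseudogene Obox3-ps2 (0.75), with which it may share reads, Sgo2a (0.74), which encodes a protector of centromeric cohesion, and the splicing factor gene Srsf5 (0.71). For Obox6 the genes were Gm10184, Taf9, which encodes a TFIID and SAGA subunit, and Ak6 (each 0.90). For Obox8 they were the spindle factor gene Tpx2 (0.93), the RNA helicase gene Ddx47 (0.92) and Pramel4 (0.91). The median r over all these genes was 0.20 for both Obox6 and Obox8, 0.11 for Obox3 and between -0.04 and 0.04 for the maternal members. Values of r are therefore not directly comparable between members.

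Related genes in TBP LOF were read from fixed lists. Of 13 paired-like homeobox relatives, 12 were tested, with a list median of -0.43 on the ERCC scale against -0.72 for all features. On that scale, where 29.7% of all features were lower and 1.34% higher, 2 of the 12 were lower and 0 higher. The 2 were the homeobox gene Crxos (977 and 346 normalised reads in CONTROL and LOF, -1.50 ± 0.32, adjusted p = 0.000163) and the double homeobox gene Duxbl1 (35.2 and 10.7, -1.73 ± 0.52, adjusted p = 0.00774). Crx (0.08), Otx1 (0.34) and Nobox (0.19), an oocyte homeobox gene, did not pass on this scale. Under TMM, where 12.7% of all features were lower and 12.8% higher, 1 of the 12 was lower. On that scale 2 were higher, Otx1 (1.38, adjusted p = 0.0171) and Nobox (1.02, adjusted p = 0.0150).

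Of 18 oocyte genes, whose mRNA is known to be stored in the egg, 1 was lower and 0 higher on the ERCC scale, with a median of 0.07, where 29.7% of all features were lower and 1.34% higher and their median was -0.72. The 1 was Zp3, a zona pellucida gene (-1.83 ± 0.34, adjusted p = 2.29e-05). Under TMM, where 12.7% of all features were lower and 12.8% higher, 1 was lower and 10 were higher, among them Btg4 (1.49), Bmp15 (1.46), an oocyte growth factor gene, and Zp2 (1.24), which, like Obox1, Obox2 and Obox5, were called on that scale. Of 19 genes activated at the 2-cell stage, 0 were lower and 1 was higher on the ERCC scale, the deubiquitinase gene Usp17lc (1.38 ± 0.40, adjusted p = 0.00515), with a median of 0.25, and 7 were higher under TMM, to be read against the same shares and medians of all features. The other 18 did not pass on the ERCC scale and had values of both signs, from -1.25 ± 0.76 (Tdpoz2) to 2.17 ± 1.07 (Zscan4b). The list holds the Zscan4 genes, Zfp352, Eif4e3 and Pramef6, which the paper names as unaffected by TBP loss in these embryos. It therefore cannot show how genes of genome activation responded as a whole, and the paper reports most of its major ZGA genes as lower. MT2_Mm, the repeat whose copies OBOX proteins are known to bind, had 0.30 ± 0.36 (adjusted p = 0.582) on the ERCC scale and 1.04 (adjusted p = 0.00790) under TMM. MERVL-int, the internal part of the same element, had -0.13 ± 0.34 (adjusted p = 0.825) on the ERCC scale. Under TMM its sign turned to positive and it was not called.

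Of the 31 genes between the first and last Obox locus on chromosome 7, 7 had enough reads to be tested and 2 were lower, Nlrp5-ps (-2.04 ± 0.66, adjusted p = 0.0131) and Gtpbp4-ps6 (-3.49 ± 1.06, adjusted p = 0.00820). Both had few reads, with CONTROL means of 9.19 and 1.98. The median of the 7 was -1.16, against -0.72 for all features, of which 29.7% were lower, so that 2 of 7 is a share near the background. Under TMM 1 of the 7 was lower, and their median was -0.37, against 0.11 for all features. Of the 8 cumulus and granulosa markers, 4 were tested, with a median of -0.33 on the ERCC scale. There 2 were lower, Amhr2 (-1.18, adjusted p = 0.00624) and Tnfaip6 (-2.46, adjusted p = 0.00866), and 0 were higher. Under TMM, where 12.7% of all features were lower and 12.8% higher, 0 markers were lower and 1 was higher. No sperm or blastocyst lineage marker passed on either scale. In FOXJ3 LOF, edgeR called 0 genes in each of these lists.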

How the data were processed

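Smart-seq+5′ libraries of 49 single late 2-cell embryos were analysed. Per the study's methods, the authors trimmed reads with Trimmomatic, mapped transcript 5′ reads with STAR 2.7.11a to GRCm38 with the construct added and endogenous Trim21 masked, kept read 2 and counted genes, ERCC transcripts and TE families with TEcount. They deposited unnormalised expected counts. All were whole numbers, so rounding changed nothing. Insertion-level rows of the TElocal tables were not used here. Symbols and transcripts came from GENCODE M21, promoters from RefSeq (GRCm38.p6).

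The members and lists were chosen with earlier results of these data known. Embryos with at least 500000 reads, 1000 genes, at most 10% mitochondrial and 15% ERCC reads were kept (47). Features detected (1 read or more) in 25% of embryos or more were tested with edgeR 4.0.16 (quasi-likelihood, two-sided, Benjamini-Hochberg over all features). TBP embryos were scaled by the median of ratios of 42 ERCC transcripts and FOXJ3 embryos by TMM with batch as a covariate. The fit over both used 41 ERCC transcripts. SEs were derived from the F statistic. Log2 CPM levels used a pseudocount of 1 and permutation tests, exact where a group had fewer than 10 embryos and otherwise with 100000 resamples. The fit was tested on simulated data. DESeq2 1.42.0, other scalings and filters, leaving out each embryo, batches apart and the construct as a covariate were alternatives. All members were named, as were list genes past the threshold (at most 4 a list), other Obox loci with more than 50 reads or past the threshold, and the 3 genes most alike to each member. Other genes named for comparison were chosen after their values were seen. Per the labels the TBP embryos were collected in 3 biological replicates, to which the sources used here do not assign them, and p-values measure the spread between embryos. Reads have no molecular identifiers, and a count of 0 was given the limit of 3 counts, which covers counting error only. The labels do not pair embryos by number.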

Additional observations from a re-analysis of the deposited data

Results flagged for a closer look

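Obox8 in TBP LOF embryo 6 had 227 ERCC-normalised reads, well above the next LOF embryo at 113. The gap was 0.508 of the range of the 9 LOF embryos, the 1 such case among the 14 sets tested, the 7 members in the 2 TBP groups. It was taken on linear values, on which high embryos stand further apart than low ones, and not on the log2 scale. The FOXJ3 groups hold more than 10 embryos and were not tested in this way. Chance flags about 1 in 20 groups. LOF embryo 6 was still below the lowest CONTROL embryo (416).

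The effect of TBP LOF differed from that of FOXJ3 LOF for Obox8, by -3.39 on the log2 scale (edgeR, adjusted p = 1.99e-06), and for Obox6, by -2.03 (adjusted p = 0.000131). In this contrast 28.9% of all features were called, 28.0% lower, so that 2 of 7 members is a share near the background. The experiments also differ in IgG, library preparation and mCherry-Trim21 level.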

How the results depend on the processing

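The lower Obox8 and Obox6 in TBP LOF kept direction and call under each of 8 other settings. They did so too when any 1 of 18 embryos was left out, with log2 fold changes of -3.65 to -3.05 and -2.19 to -1.85 in those fits. A further setting, the gene rows of the TElocal tables, held the same values (0 of 54931 rows differed) and could not change a result. The count of members past the threshold was 2 with any 1 embryo left out. It was 5 under TMM scaling (25.5% of all features called) and 5 under DESeq2 size factors in edgeR (26.1%), where Obox1, Obox2 and Obox5 were also higher. Both scalings take away the shift of all features that the ERCC scale keeps. For the difference between the TBP and FOXJ3 effects the count rose from 2 to 5 under TMM. For FOXJ3 LOF it was 0 in each of the 9 other settings and 0 when any 1 of 29 embryos was left out. No value past the threshold turned its sign. Among uncalled TBP values with 1 embryo left out, Obox5 ran from 0.19 (without LOF 1) to 0.58 (without CONTROL 8), Obox2 from 0.02 (without LOF 10) to 0.34 (without CONTROL 8) and Obox7 from -0.50 to 0.04.

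Same-numbered embryos of LOF and CONTROL did not deviate together (r of -0.02 to 0.09 over 7 pairs for TBP, and -0.12 to 0.16 over 12 pairs for FOXJ3). Embryo numbers need not follow the biological replicates, so neither this check nor a block by number tests for shared collections. With the embryo number as a replicate block, 3 members passed for TBP, where 25.8% of all features were called (Obox1 at 1.18, adjusted p = 0.00963, Obox6 at -2.20 and Obox8 at -3.76) and 0 for FOXJ3. Obox1, Obox2 and Obox7 had group means of 13.3 to 45.6 reads per TBP embryo, and whether depth limited their calls was not tested. With all 49 embryos, the count of neighbour pairs that differed in CPM was 3 against 2, with an Obox2 pair added that the main comparison had not tested.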
